A study of Homo sapiens with 12 samples.

Results

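The genes described here are 9 growth factor receptors and co-receptors of the RET, ALK, NTRK and ERBB families: RET, GFRA1, GFRA2, GFRA3, ALK, NTRK2, NTRK3, ERBB3 and ERBB4. They were chosen by symbol, and each was read from the transcript cluster (the gene-level feature of the array) annotated with that symbol alone and, at exon level, from its exon and junction probe sets. They are 9 of 22411 genes with such a cluster, each with 1 cluster, and their 498 probe sets are among the 672085 with 1 symbol. The samples were SH-SY5Y, a human neuroblastoma cell line, measured on Affymetrix human transcriptome arrays. One group of 3 samples received an siRNA against MATR3, the gene of the nuclear RNA- and DNA-binding protein Matrin3. The other group of 3 received a negative control siRNA. Both groups were electroporated, were cultured in medium with 15% serum and gave RNA after 48 h. The knockdown was transient and in 1 cell line, and the labels do not say that replicates came from separate cultures, so each p-value reflects the spread of these samples alone, and that spread may be technical.

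These genes encode cell surface receptors. RET is the receptor tyrosine kinase for ligands of the GDNF family, which it binds together with a GFRA co-receptor held in the membrane by a lipid anchor. ALK, NTRK2 (TrkB), NTRK3 (TrkC), ERBB3 and ERBB4 are receptors of the tyrosine kinase type that bind ALKAL ligands, BDNF and neurotrophin 4, neurotrophin 3, and neuregulins, and they signal through shared adaptors to the RAS-MAPK and AKT pathways. In the sympathoadrenal lineage, from which neuroblastoma arises, RET and ALK act in the growth and differentiation of neuroblasts, and activating ALK mutations are a known cause of familial neuroblastoma.

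The transcript cluster that the annotation gives to MATR3 and its neighbour SNHG4 had log2 values of 11.21, 10.53 and 10.52 in MATR3 siRNA replicates 1 to 3, against 12.25, 11.75 and 11.68 in control siRNA replicates 1 to 3. The signal after MATR3 siRNA was 45.4% of that after control siRNA, and the groups did not overlap. The 2 arrays of replicate 1, 1 from each group, differed from the remaining 4: across clusters their signals correlated at r = 0.9939, whereas correlations between either of them and a remaining array were 0.9773 to 0.9838. They are called an array set below, which is a grouping seen in the data and not one the labels give. Median signals over clusters were 4.93 to 5.10 after MATR3 siRNA, against 4.80 to 5.16 after control siRNA. On each array 23 background probe sets gave a floor, and the highest of them lay at 6.83 to 7.15 after MATR3 siRNA, against 6.48 to 8.75 after control siRNA. Of the markers of sympathetic neuroblastoma cells, 8 of the 9 with a cluster lay above the highest background set on all arrays, the exception being TH at 4.80 to 4.95 after MATR3 siRNA, against 4.51 to 4.85 after control siRNA. None of 7 Schwann and glial markers and none of 6 blood and endothelial markers did so. Of 9 mesenchymal and fibroblast markers with a cluster, 3 did.

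RET fell and ERBB4 rose after MATR3 siRNA in a linear model blocked by array set over clusters with 1 symbol, and the other receptors did not pass that test. RET signal was 53.8% of the control siRNA level on the linear scale. ERBB4 signal was 1.63-fold that level, with its cluster below the highest background set on all 6 arrays. In that model (limma), over 15209 clusters with 1 symbol and enough signal, 2 of the 7 receptors that passed the filter had an adjusted p below 0.05, where 3.48% of all those clusters did. NTRK2 and ERBB3 lay under the filter on mean signal. Blocked by array set over all 33782 filtered clusters, with or without a symbol, limma called 1 cluster and 0 of the 7 receptors, and the adjusted p was 0.0913 for RET and 0.106 for ERBB4. Without any block, limma called none of the 7 receptors and 0 clusters (0%). In that fit 2 receptors, RET and ERBB4, had an unadjusted p below 0.05, as did 316 of the 33782 clusters. With the replicate number as a block, limma called 0 of the 7 receptors, against 0.0526% of the clusters with 1 symbol, and the adjusted p was 0.0540 for RET and 0.0623 for ERBB4. Below, rose, fell, passed and the limma fit blocked by array set refer to the version over the 15209 clusters with 1 symbol, unless probe sets are named.

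RET (cluster TC10000268.hg.1) had log2 values of 10.57, 9.77 and 9.77 after MATR3 siRNA, against 11.34, 10.72 and 10.73 after control siRNA. Every MATR3 siRNA sample lay below every control siRNA sample, and replicate 1 was the highest sample of both groups. The group means were 10.04 ± 0.46 after MATR3 siRNA, against 10.93 ± 0.36 after control siRNA (SD, n = 3 each). The difference between them was -0.89 ± 0.11 (SD, n = 3 pairs), with a 95% interval of -1.04 to -0.75 and an adjusted p of 0.0199 in the limma fit blocked by array set. It ranked as number 21 among the lowest of the 15209 differences. An exact permutation test over the 6 samples gave p = 0.1, two-sided, the smallest that 3 against 3 allows. The adjusted p was 0.0482 when MATR3 siRNA replicate 2 was left out of that limma model. Leaving out any of the other 5 samples ended the call, with adjusted p up to 0.129 and differences of -0.96 to -0.87 over all 6 omissions. Omitting either replicate 1 array gave the same result, since the other then had no partner in its array set.

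The GDNF family co-receptors gave no call. GFRA1, which binds GDNF, had log2 values of 5.09, 5.03 and 4.96 after MATR3 siRNA, against 5.05, 4.85 and 4.82 after control siRNA. The groups overlapped, and the difference was 0.12 ± 0.07 (SD, n = 3 pairs; 95% interval -0.02 to 0.26). GFRA2, which binds neurturin, had 6.23, 6.00 and 5.81 after MATR3 siRNA, against 6.15, 5.96 and 5.87 after control siRNA. Its difference of 0.02 ± 0.07 turned to -0.0283 under quantile normalization and to -0.0567 under median centring, so its direction was not settled. GFRA3, which binds artemin, had 5.43, 5.26 and 5.55 after MATR3 siRNA, against 5.32, 5.26 and 5.28 after control siRNA, a difference of 0.13 ± 0.14. The 95% intervals for GFRA2 and GFRA3 were -0.15 to 0.19 and -0.08 to 0.33, and adjusted p for the 3 co-receptors lay between 0.254 and 0.887 in the limma fit blocked by array set. All 3 clusters lay above the median of the background sets but below the highest of them on every array.

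ALK had log2 values of 8.85, 8.41 and 8.33 after MATR3 siRNA, against 9.0, 8.40 and 8.56 after control siRNA. The groups overlapped. The difference was -0.12 ± 0.12 (SD, n = 3 pairs), with a 95% interval of -0.28 to 0.03 and an adjusted p of 0.302 in the limma fit blocked by array set. RET and ALK were the members whose clusters lay above the highest background set on all 6 arrays. The other 7 did so on none.

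NTRK2, the BDNF receptor, had log2 values of 5.09, 4.87 and 4.91 after MATR3 siRNA, against 4.87, 4.62 and 4.68 after control siRNA. Each MATR3 siRNA sample was above the control siRNA sample of its number, by 0.22 to 0.25, but the groups met at 4.87. With no filter on signal, limma blocked by array set gave a difference of 0.23 with a 95% interval of 0.09 to 0.37 and an adjusted p of 0.147. NTRK3, the neurotrophin 3 receptor, had 5.87, 5.54 and 5.58 after MATR3 siRNA, against 6.04, 5.59 and 5.61 after control siRNA. Its difference of -0.08 ± 0.08 had an adjusted p of 0.400 in the limma fit blocked by array set.

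ERBB3, a neuregulin receptor whose kinase domain is weakly active and which signals as a heterodimer, had log2 values of 4.51, 4.54 and 4.51 after MATR3 siRNA, against 4.51, 4.40 and 4.37 after control siRNA. The difference was 0.09 ± 0.08 (SD, n = 3 pairs), and replicate 1 gave the same value in both groups. ERBB4 (cluster TC02002735.hg.1), the neuregulin receptor with an active kinase, had 6.28, 6.09 and 5.84 after MATR3 siRNA, against 5.67, 5.20 and 5.23 after control siRNA. Every MATR3 siRNA sample lay above every control siRNA sample. The group means were 6.07 ± 0.22 after MATR3 siRNA, against 5.37 ± 0.26 after control siRNA (SD, n = 3 each). The difference of 0.70 ± 0.16 (SD, n = 3 pairs) had a 95% interval of 0.51 to 0.90 and an adjusted p of 0.0223 in the limma fit blocked by array set. It ranked as number 42 among the highest of the 15209 differences, and the exact permutation p was 0.1, two-sided. Leaving out any 1 sample ended the call, with adjusted p of 0.0521 to 0.133 and differences of 0.62 to 0.76. Signal near background can understate a fold change, and whether it did so for ERBB4 was not tested.

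**Figure D1:**
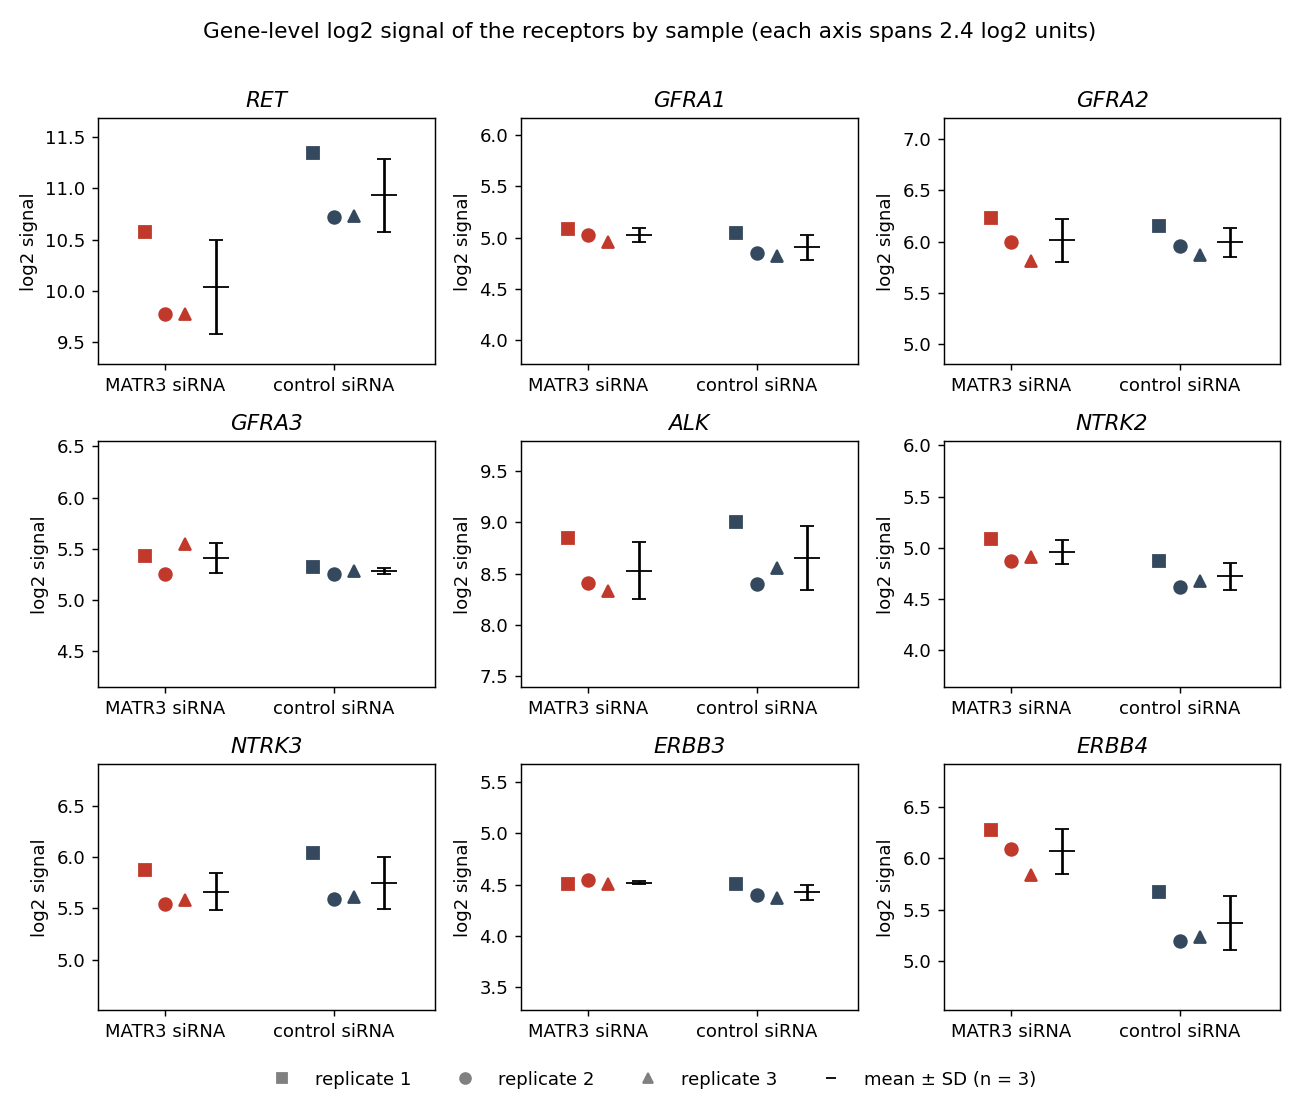
Log2 signal of the 9 receptor clusters in each sample, MATR3 siRNA on the left and control siRNA on the right of each panel, with the mean and SD of 3 samples as bars. The symbols mark the replicate number, and every axis spans the same number of log2 units. RET samples lie at 9.77 to 10.57 after MATR3 siRNA, against 10.72 to 11.34 after control siRNA, and ERBB4 samples at 5.84 to 6.28 after MATR3 siRNA, against 5.20 to 5.67 after control siRNA.

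RET and ERBB4 were thus the members whose groups did not overlap, 2 of the 7 tested, where 2.24% of the 15209 clusters had groups that did not overlap. In the 3 replicate pairs RET differed by -0.77, -0.95 and -0.96 and ERBB4 by 0.61, 0.89 and 0.61. The pairs of replicates 2 and 3 alone, without the replicate 1 arrays, gave -0.96 for RET and 0.75 for ERBB4. Fitted on those 4 samples, limma called 0 clusters and gave an adjusted p of 0.0616 for RET and 0.0733 for ERBB4. Omitting either replicate 1 array from the fit blocked by array set gave these same values, so this fit is not a further check. The median difference of the 15209 clusters was 0.04.

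**Figure D2:**
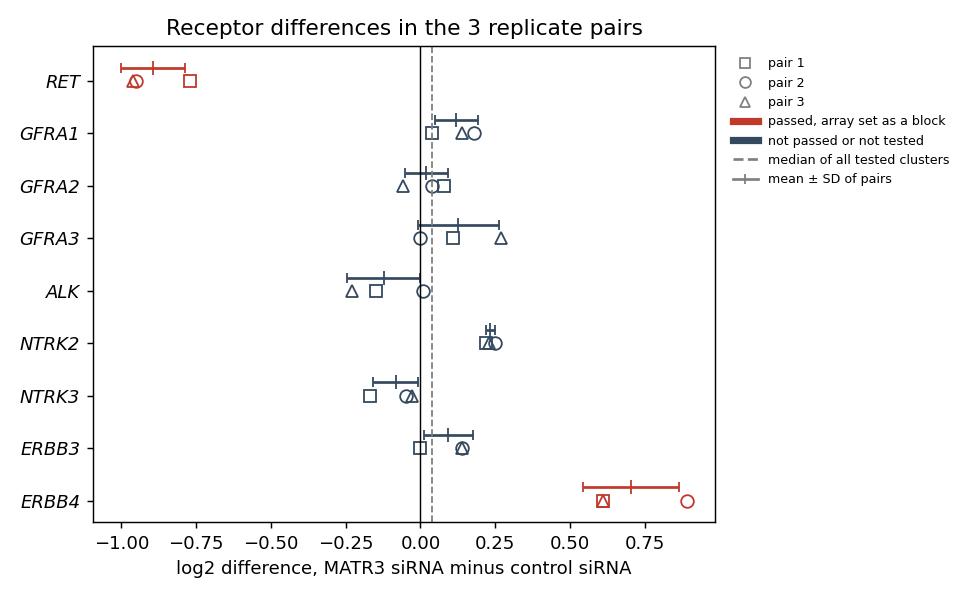
Difference in log2 signal, MATR3 siRNA minus control siRNA, for each receptor in the 3 replicate pairs (open symbols), with the mean and SD of the pairs above them. Red marks RET and ERBB4, which passed in the fit blocked by array set over clusters with 1 symbol. RET lies between -0.96 and -0.77 and ERBB4 between 0.61 and 0.89, while the other 7 receptors lie between -0.23 and 0.27.

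At exon level nearly every RET probe set was lower after MATR3 siRNA. RET has 51 probe sets, 30 in exons and 21 across junctions. Of the 51, 50 were lower after MATR3 siRNA by value, 27 of them at least 2-fold, and the median difference was -1.01 with a range of -3.14 to 0.40. In 32 of the 51 every MATR3 siRNA sample lay below every control siRNA sample, where 2.61% of all 913055 probe sets did so and 1.99% were at least 2-fold lower. Junction probe sets had a median difference of -1.29 and exon probe sets one of -0.97. Of the 51, 41 lay above the highest background set on all arrays, and all 41 were lower after MATR3 siRNA. With the pairs of replicates 2 and 3 alone, 48 of the 51 were lower. Probe sets of 1 gene share the same RNA and are not replicates.

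ERBB4 has 75 probe sets, of which 67 were higher after MATR3 siRNA by value, with a median difference of 0.74 and a range of -0.35 to 2.33. At least 2-fold higher were 28, where 1.72% of all probe sets were, and 20 had groups that did not overlap, where 5.00% of all probe sets were higher without overlap. None of the 75 was at least 2-fold lower. Exon and junction probe sets gave like medians, 0.70 over 42 and 0.87 over 33. Only 3 of the 75 lay above the highest background set on all arrays. These 3 differed by 0.04 to 0.81, and their groups overlapped.

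ALK had 51 of 73 probe sets below 0 and 22 above, with a median of -0.18. In 2 of the 73 the groups did not overlap, both lower after MATR3 siRNA, a share near the 2.61% of all probe sets. NTRK2 had 42 of 59 above 0, a median of 0.21, 6 at least 2-fold higher and 11 with every MATR3 siRNA sample above every control siRNA sample, where 1.72% and 5.00% of all probe sets were. Just 1 of the 59 lay above the highest background set on all arrays. NTRK3 had 40 of 61 below 0, a median of -0.08, and 8 lower and 2 higher without overlap, where 2.61% and 5.00% of all probe sets were. ERBB3 and the GFRA genes gave medians of 0.05 to 0.13, with at most 4 probe sets of a gene lower without overlap and at most 4 higher, to be read against the same shares.

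Among the probe sets of NTRK3 and NTRK2 whose groups did not overlap, 4 junctions were picked out after their values were seen. JUC15009587.hg.1 of NTRK3 had log2 values of 13.53, 13.26 and 13.42 after MATR3 siRNA, against 14.17, 13.87 and 14.23 after control siRNA, a difference of -0.69 ± 0.11 (SD, n = 3 pairs). JUC15009583.hg.1 of NTRK3 had 12.98, 13.18 and 12.52 after MATR3 siRNA, against 13.78, 13.55 and 13.55 after control siRNA, a difference of -0.73 ± 0.34. The NTRK3 cluster itself lay at 5.54 to 5.87 after MATR3 siRNA, against 5.59 to 6.04 after control siRNA. Why these NTRK3 junctions gave far higher signal was not tested. In NTRK2, JUC09002277.hg.1 had 9.35, 9.65 and 9.59 after MATR3 siRNA, against 8.22, 8.02 and 7.01 after control siRNA, a difference of 1.78 ± 0.74. None of these groups overlapped. JUC09002275.hg.1 of NTRK2 had 6.68, 6.92 and 7.21 after MATR3 siRNA, against 5.08, 5.55 and 5.54 after control siRNA, a difference of 1.55 ± 0.16. Its groups did not overlap either, and its adjusted p of 0.273 in the limma fit blocked by array set was the lowest among the receptors' probe sets. None of the 25 NTRK2 junction probe sets, these included, lay above the highest background set on all arrays.

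**Figure D3:**
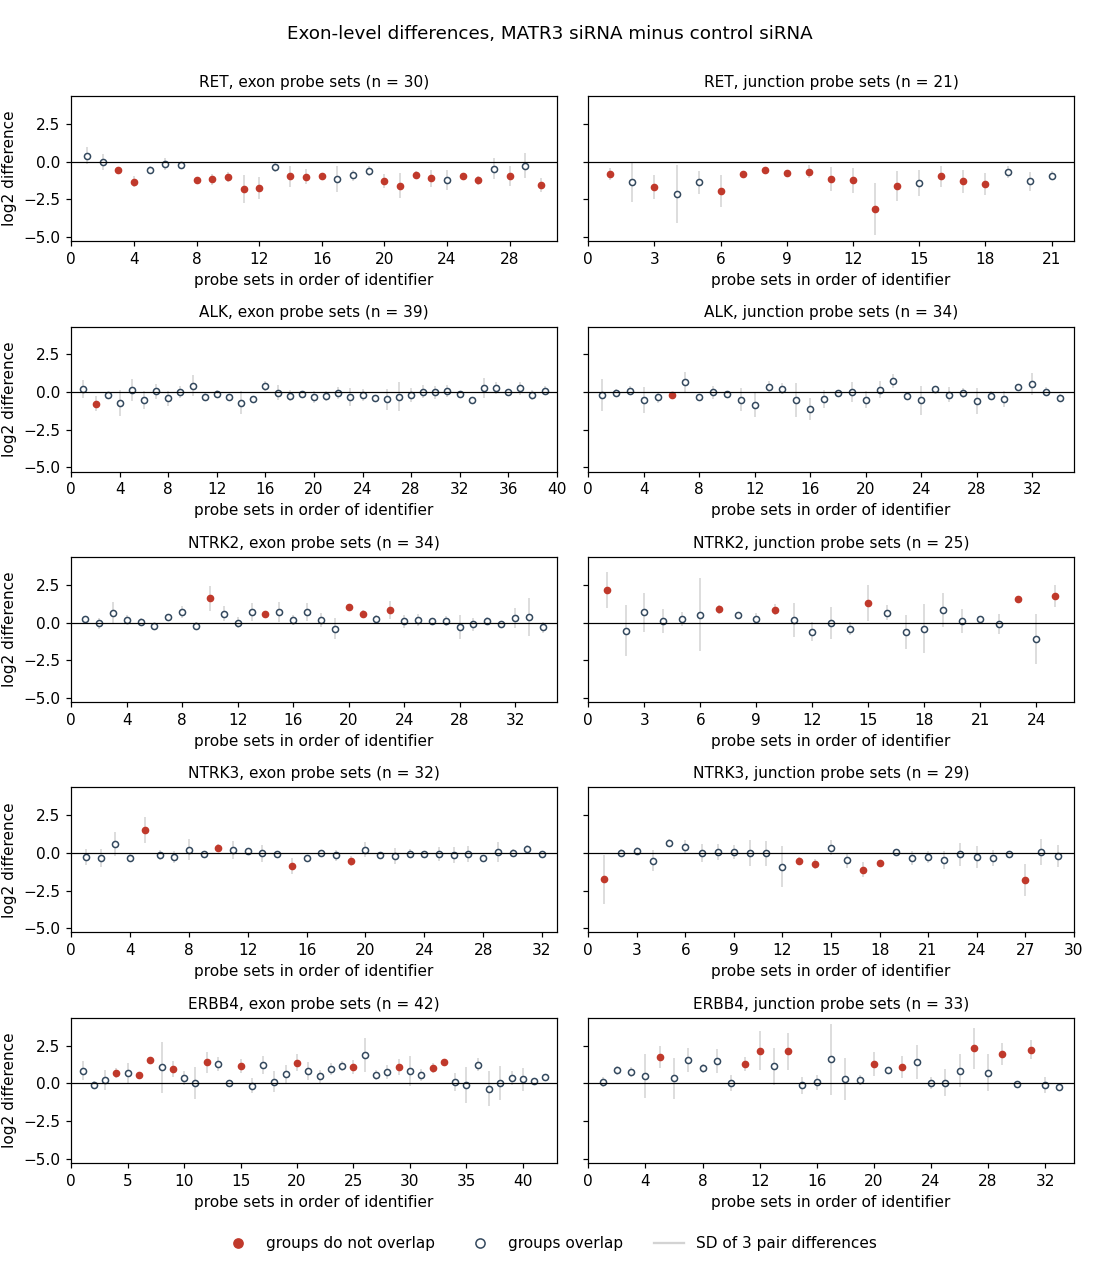
Difference in log2 signal, MATR3 siRNA minus control siRNA, for every exon (left) and junction (right) probe set of RET, ALK, NTRK2, NTRK3 and ERBB4, in order of identifier, with the SD of 3 pair differences as grey bars. Filled points are probe sets whose groups do not overlap. RET points lie below 0 in 50 of 51 cases and ERBB4 points above 0 in 67 of 75.

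The series was made to examine splicing as well as expression. Of the receptors' 498 probe sets 232 passed the filter, and limma without a block called 0 of them and 0% of all 456623 tested. In that fit 56 of the 232 had an unadjusted p below 0.05, as did 16799 of all 456623. Of the 56, 31 were among the 47 filtered RET probe sets and 11 among the 32 of ERBB4. GFRA2, NTRK2 and NTRK3 had 4 each, ALK and ERBB3 1 each, and GFRA1 and GFRA3 0. The array set as a block and the replicate block also called 0. The splicing index is the signal of a probe set minus the mean of all filtered probe sets of that gene on that array. Without a block it gave 0 calls among the 232 and 0% among 360570. Unadjusted p was below 0.05 for 24 of the 232 and for 18315 of the 360570. The lowest splicing index adjusted p of any receptor probe set was 0.922 without a block and 0.536 with the array set as a block.

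The probe sets of largest splicing index change in RET and ERBB4 are given as values. JUC10001761.hg.1, a RET junction, had log2 values of 10.75, 8.02 and 7.34 after MATR3 siRNA, against 11.99, 11.70 and 11.85 after control siRNA. MATR3 siRNA replicate 1 stood closer to the control siRNA samples than replicates 2 and 3 did. The signal difference was -3.14 ± 1.70 (SD, n = 3 pairs) and the splicing index difference -2.03. With MATR3 siRNA replicate 1 left out, limma gave this junction a splicing index adjusted p of 0.0455, which passed, against 0.922 with all samples. That fit, which keeps the control siRNA replicate 1 array and has no block, called 411 of 360570 probe sets. With the replicate 1 arrays of both groups left out, limma called 0 splicing index probe sets, 0 of them in the receptors. Unadjusted p was then below 0.05 for 45 of the 232 receptor probe sets and for 63302 of all 360570, a like share.

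PSR10003065.hg.1, a RET exon probe set, had log2 values of 10.02, 8.95 and 9.20 after MATR3 siRNA, against 10.22, 9.37 and 8.65 after control siRNA. Its groups overlapped and its signal difference was -0.02, so that its splicing index was 1.10 higher after MATR3 siRNA by value while the rest of RET was lower. In ERBB4, JUC02023016.hg.1 had 6.51, 7.36 and 8.31 after MATR3 siRNA, against 4.89, 5.89 and 4.42 after control siRNA. JUC02023018.hg.1 had 7.93, 7.15 and 7.16 after MATR3 siRNA, against 6.02, 5.86 and 4.41 after control siRNA. Neither ERBB4 junction had overlapping groups, and their splicing index differences were 1.40 and 1.06.

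The clusters whose 6 values were most like those of RET by Pearson correlation were ARHGAP23 (r = 0.9933), a GTPase-activating protein, KIF5C (r = 0.9926), a kinesin of axonal transport, and GEM (r = 0.9923), a small GTPase. KIF5C had log2 values of 12.15, 11.22 and 11.31 after MATR3 siRNA, against 12.88, 12.09 and 12.24 after control siRNA. KIF5C fell by 0.84 on the log2 scale and GEM by 0.47. ARHGAP23 differed by -0.20 and did not pass, with an adjusted p of 0.0913 in the limma fit blocked by array set. For ERBB4 they were KCTD12 (r = 0.9944), an auxiliary subunit of GABA-B receptors, PDCD2L (r = 0.9903) and the RNA pseudogene RNY4P8 (r = 0.9903). KCTD12 had 11.19, 10.81 and 10.37 after MATR3 siRNA, against 10.27, 9.58 and 9.65 after control siRNA, and rose by 0.96. RNY4P8 rose by 0.32, and PDCD2L differed by 0.33 but did not pass (adjusted p = 0.0574 in the same fit). These correlations are over 6 samples that share the offset of the replicate 1 arrays, and they describe the likeness only.

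Genes of the same pathways were read from 8 lists, and the counts that follow are to be read against the 3.48% of all tested clusters that passed in the same fit. Where no gene of a list passed, the 2 clusters of highest signal are named, a choice by probe signal that says nothing of which RNA was more abundant. Of 20 receptor ligands with a cluster, 8 passed the filter and none passed the test, with a median difference of -0.08. Named by signal were PTN and MDK, heparin-binding growth factors. PTN had log2 values of 11.49, 10.61 and 10.53 after MATR3 siRNA, against 11.29, 10.64 and 10.67 after control siRNA, and MDK had 10.83, 9.95 and 10.02 after MATR3 siRNA, against 10.50, 9.81 and 9.82 after control siRNA. Among 4 other receptors tested none passed, and those named by signal were NCAM1, which can also bind GDNF, at -0.22 ± 0.08 and EGFR at 0.20 ± 0.08 (SD, n = 3 pairs).

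Of 26 adaptors and proximal effectors tested, 1 rose and 2 fell, with a median of 0.06. PTPN11 (SHP2), the phosphatase that carries receptor signals to RAS, had log2 values of 12.90, 12.45 and 12.38 after MATR3 siRNA, against 13.47, 12.96 and 12.92 after control siRNA. It fell by 0.54, with 0.03 as the SD of 3 pairs and an adjusted p of 0.0199 in the limma fit blocked by array set. RAPGEF1, an activator of RAP1, changed by -0.30 ± 0.06 (here and below, SD of 3 pair differences) and SHC3, a neuronal SHC adaptor, by 0.36 ± 0.08. IRS2, an adaptor named after its values were seen, had a larger difference of 0.64 ± 0.23 that missed the threshold (adjusted p = 0.0542). In the RAS-MAPK and AKT core 1 of 12 fell and none rose. It was RPS6KA2, a ribosomal S6 kinase downstream of ERK, at -0.35 ± 0.13.

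Of 16 feedback inhibitors 2 fell and 1 rose, with a median of -0.01. SPRY1 and SPRY2, Sprouty proteins that restrain receptor kinase signalling, changed by -0.67 ± 0.26 and -0.55 ± 0.22. NEDD4L, a ubiquitin ligase, changed by 0.27 ± 0.05. DUSP4, an ERK phosphatase named after its values were seen, differed by 0.71 ± 0.48 with an adjusted p of 0.0840. Of 15 growth factor response genes 3 rose and none fell, with a median of 0.09: VGF, a neuropeptide precursor induced by neurotrophins, by 0.44 ± 0.16, ETV1, an ETS transcription factor, by 0.40 ± 0.03, and CCND1, cyclin D1, by 0.28 ± 0.06. The immediate early genes FOS and EGR1, also named after their values were seen, differed by 0.09 and -0.07 and did not pass.

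Among 8 sympathoadrenal transcription factors 1 rose, ISL1, by 0.54 ± 0.19, and none fell. Of 6 genes of the retinoic acid response none passed, and STRA6 and RARA, named by signal, differed by -0.22 and 0.01. Adjusted p-values of the listed genes that passed lay between 0.0199 and 0.0495 in the limma fit blocked by array set. None of them was below 0.05 with the replicate number as a block, where they lay between 0.0620 and 0.115. With no filter on signal, adjusted p stayed below 0.05 for PTPN11 (0.0428) and lay between 0.0572 and 0.116 for the other 10 pathway genes that had passed. With 1 sample left out of the fit blocked by array set, 21 clusters were called without MATR3 siRNA replicate 2 and 0 clusters in each of the other 5 omissions. Each list's median stands beside 0.04 for all tested clusters.

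**Figure D4:**
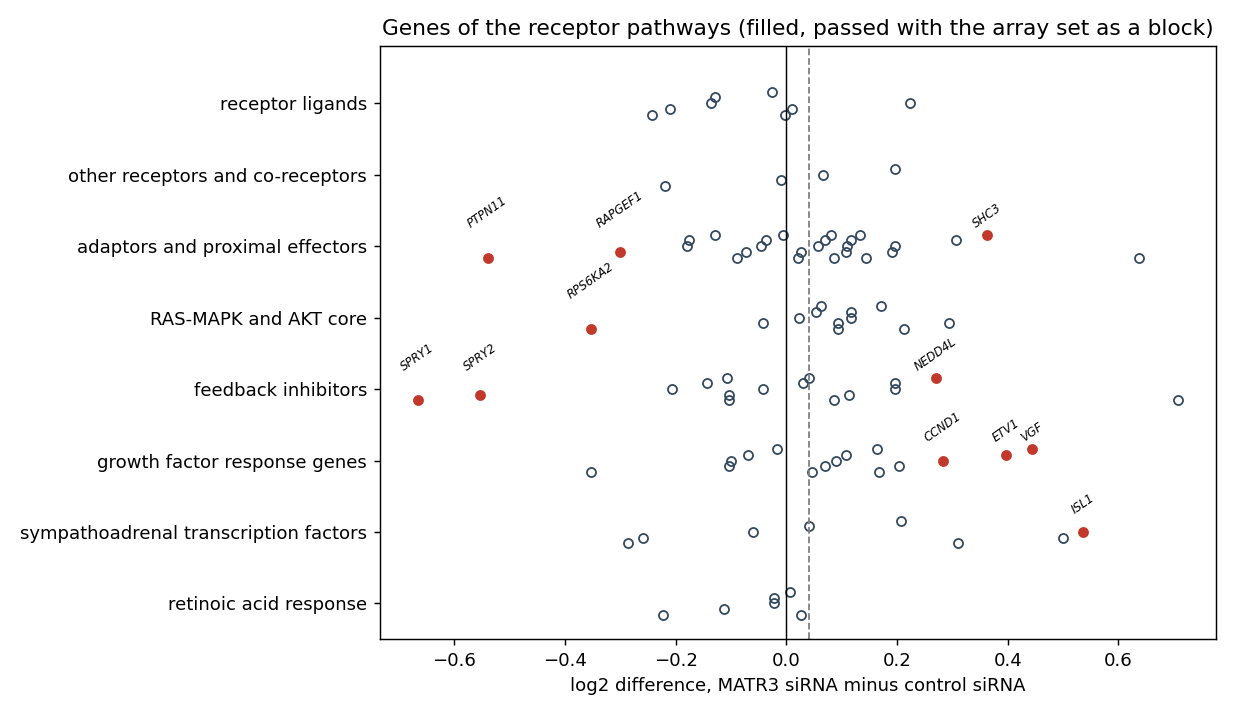
Difference in log2 signal, MATR3 siRNA minus control siRNA, for each tested gene of the 8 pathway lists. Filled and named points passed in the fit blocked by array set over clusters with 1 symbol, and the dashed line is the median of all tested clusters at 0.04. SPRY1 at -0.67 is the lowest point and DUSP4 at 0.71, which did not pass, is the highest.

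Some markers of cell state changed in the same samples as RET and ERBB4. The counts of markers that passed are also to be read against the 3.48% of all tested clusters that did so. Of 8 sympathetic neuroblastoma markers tested 2 fell, DBH by 0.84 and DDC by 0.63 on the log2 scale, and 1, STMN2, rose by 0.37. The mean level per sample over the 9 such markers with a cluster, TH included, was 11.25 to 11.86 after MATR3 siRNA, against 11.56 to 11.97 after control siRNA. Of 8 mesenchymal and fibroblast markers tested 2 rose, VIM by 0.37 and FN1 by 0.36, and none fell. With no filter on signal DBH and DDC still passed, and STMN2, VIM and FN1 did not, with adjusted p up to 0.104. The mean level of the 9 mesenchymal and fibroblast markers with a cluster was 7.21 to 7.82 after MATR3 siRNA, against 7.06 to 7.66 after control siRNA. Schwann and glial markers, which include ERBB3, averaged 4.44 to 4.65 after MATR3 siRNA, against 4.46 to 4.68 after control siRNA, near background. The part of these markers in the receptor differences was not tested, and in bulk RNA fewer cells of a type and less RNA per cell cannot be told apart.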

How the data were processed

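Total RNA from 3 samples per group was measured on Human Transcriptome 2.0 arrays with 100 ng of input, and the authors deposited log2 signals per transcript cluster and per probe set. Per the submitters' processing notes, these come from Affymetrix Expression Console and RMA, and the genome build is not given in the sources used here. The gene-level and exon-level tables shared 2995 features, all 2995 with identical values, so both tables describe the same 6 hybridisations. Nothing was rescaled. Array data have no depth, and precision is limited by there being 3 arrays per group.

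Symbols came from the platform annotation, updated through RefSeq, and 23781 of 67528 clusters had 1 symbol, 1543 several and 42204 none. limma 3.58.1 in R 4.3.3 (lmFit and eBayes, two-sided) was fitted to features with a mean at or above the median of all, with Benjamini-Hochberg adjustment and a threshold of 0.05. The design was 3 against 3 without a block over all filtered clusters, and blocks for array set or replicate number and restriction to 1 symbol were alternatives, as were other scalings, filters, array weights and omission of each sample. The splicing index needed 5 filtered probe sets per gene. Fits were tested on simulated data.

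The receptors, lists and alternatives were chosen with earlier results of these data known. Named were all 9 receptors, in each list up to 4 genes of largest change that passed in the fit blocked by array set over clusters with 1 symbol or else the 2 of highest probe signal, the 3 clusters most like each receptor that passed, and the 2 probe sets of largest splicing index change in each of those receptors. The deviations of same-numbered samples from their group means correlated, with r of 0.696, 0.327 and 0.527. Samples of different numbers were not compared in this way, so these values cannot show that equal numbers mark pairs. Across clusters, MATR3 siRNA replicate 2 correlated at r = 0.9895 with control siRNA replicate 2 and at 0.9895 with replicate 3. MATR3 siRNA replicate 3 gave 0.9914 and 0.9911 with the same 2 arrays. Pairs follow the number in the labels, and each SD over pairs and the replicate block rest on that choice. List symbols with no cluster of their own were not analysed here. No coordinates are given, and since probes differ, signal was used to choose which genes of a list to name and not to order their RNA levels.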

Additional observations from a re-analysis of the deposited data

How the results depend on the processing

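The fit without a block called 0 clusters and 0 receptors, and the array set as a block over all filtered clusters called 1 cluster and no receptor. With the replicate number as a block, 8 clusters with 1 symbol were called and 0 receptors, and over all filtered clusters 0. The array set as a block with 1 symbol called 530 of 15209 clusters, 316 higher and 214 lower, and 2 of the 7 receptors tested. Added to it, quantile normalization gave 386 of 15206 clusters (170 higher, 216 lower), with 2 of 7 receptors. Median centring gave 205 of 15209 (58 higher, 147 lower), also with 2 of 7 receptors. No filter gave 124 of 23781 clusters, with 2 of 9 receptors. The 75th percentile filter gave 973 of 9533 clusters and 1 of the 2 receptors tested, RET, since ERBB4 was not tested there. Array weights without a block called 3194 of 33782 clusters and 2 of 7 receptors, and quantile normalization alone called 1 cluster. RET stayed between -0.97 and -0.89 and ERBB4 between 0.63 and 0.73 under these settings. In the fit blocked by array set over clusters with 1 symbol, adjusted p was 0.00555 to 0.0387 for RET and 0.0209 to 0.0461 for ERBB4, and with array weights 0.00284 and 0.00564.

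With 1 sample left out, the number of clusters called was 0 to 21 and of receptors 0 to 1. The highest, 21 of 15209 clusters and 1 of 7 receptors, came with MATR3 siRNA replicate 2 out and the array set as a block. Without a block, RET ranged over -1.16 to -0.69 and ERBB4 over 0.60 to 0.86. The same omissions gave -0.28 to 0.05 for ALK, -0.187 to 0.0633 for NTRK3 and -0.0883 to 0.122 for GFRA2. ALK at 0.05 and NTRK3 at 0.0633 were without control siRNA replicate 1. In that fit the median difference of all 33782 filtered clusters was 0.245, against 0.0433 with all samples, so both lay below the median. Without MATR3 siRNA replicate 1 that median was -0.132. Splicing index calls numbered 0 to 411, and 0 to 1 in the receptors. The 411 of 360570 and the 1 of 232 in the receptors were without MATR3 siRNA replicate 1. The replicate block gave 1 splicing index call, in no receptor. GFRA2 was -0.0283 under quantile normalization, -0.0567 under median centring, -0.0461 with array weights, -0.01 with replicates 2 and 3 alone (chosen after seeing the data) and -0.0136 as the mean over filtered exon-level probe sets. GFRA3 was -0.10 by that mean, NTRK2 0.57 and ERBB3 0.01. The cause of these changes was not tested. Signal near background limits all receptors but RET and ALK.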
